A study of Capra hircus with 21 samples.

Results

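The genes described here are the transcripts of the goat mitochondrial genome, taken as every row placed on chromosome M in a table of RNA levels from goat (Capra hircus) oocytes and embryos. There were 15 such rows among 19040 in the table. They held 13 protein genes and 2 ribosomal RNA rows, and no row was a transfer RNA gene, so transfer RNAs were not analysed here. The 21 libraries covered 7 stages with 3 libraries (A, B and C) each: the oocyte, cleavage embryos of 2, 4, 8 and 16 cells, the morula and the blastocyst. The study's oocytes were matured in the animal and its embryos developed there, with no genotype, treatment or age given in the labels. The labels do not say how many oocytes or embryos a library held or whether libraries A to C stem from different animals, so p-values here reflect differences between libraries that could be technical in part or whole.

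Mitochondrial DNA is a small circle that is transcribed from both strands into long precursors, which are cut at transfer RNAs to release the messenger and ribosomal RNAs. Its protein genes encode core subunits of respiratory complexes I, III and IV and of the ATP synthase, and all the other subunits, together with the proteins that copy, transcribe, process and translate the mitochondrial genome, are nuclear. In mammals the mitochondria of an embryo come from the oocyte, which stores a large number of genome copies. In species studied in most detail, such as the mouse, replication of that genome pauses during cleavage and is resumed around the blastocyst stage.

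Of the 13 protein genes, 7 encode complex I subunits (ND1 to ND6 and ND4L), 1 encodes cytochrome b of complex III (CYTB), 3 encode the catalytic core of cytochrome c oxidase, complex IV (COX1, COX2 and COX3), and 2 encode ATP synthase subunits (ATP6 and ATP8). Positions are given as in the deposited table, whose genome build is not given in the sources used here. The ribosomal RNA row ENSCHIG00000000002 ran from 69 to 638 and the row ENSCHIG00000000004 from 1092 to 2665, and they are called the upstream and the downstream rRNA row below because the table gives them no gene name. COX1 ran from 5329 to 6874, COX2 from 7016 to 7700 and COX3 from 8609 to 9393. ND6, from 13552 to 14080, was the only row on the minus strand, beside ND5 (11748 to 13569) and CYTB (14153 to 15293) on the plus strand. ATP8 (7771 to 7969) shared 40 of its 198 bases with ATP6, ND6 shared 17 bases with ND5, and ND4L shared 7 bases with ND4. Whether the counting used strand, and how it treated bases shared by overlapping genes or reads that also match nuclear copies of mitochondrial sequence, is not given in the sources used here, so values of ATP8, ND4L and ND6 are uncertain to that extent.

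Levels are RPKM, that is, reads scaled by the span of the gene and by the size of the library. Mitochondrial genes have no introns, so RPKM was compared between these rows. The span is that of the annotated row, and whether it equals the transcribed length was not tested. The upstream rRNA row spans 569 bases and is followed by 454 bases without a row, so its level is uncertain to that extent. The libraries held 8.47 to 26.7 M reads in listed genes. Stage markers set blastocysts apart from early stages, but oocyte markers were not highest in oocytes. Summed oocyte markers (5 genes, among them GDF9, an oocyte-secreted growth factor) ran from 136 to 202 RPKM in oocytes. They ran from 322 to 490 RPKM at the 2-cell, 287 to 305 at the 4-cell and 344 to 405 at the 8-cell stage. At the 16-cell stage they ran from 34.2 to 141 RPKM, which overlaps the oocytes. Morulae had 1.48 to 54.1 RPKM and blastocysts 0.0447 to 0.234 RPKM. Summed trophectoderm markers (4 genes, among them KRT8, a keratin) ran from 93.0 to 162 RPKM in blastocysts and reached at most 7.39 RPKM in any earlier library. In blastocysts this sum was mostly KRT8, at 91.6, 160 and 91.9 RPKM in libraries A, B and C. CDX2, also on the list, was at 0.252, 0.261 and 0.0784 RPKM there. Within their stages, 16-cell C and morula C stood apart, with GDF9 at 57.6 RPKM in 16-cell C against 7.05 and 9.71 RPKM in 16-cell A and B, and at 11.1 RPKM in morula C against 0.541 and 0.647 RPKM in morula A and B. Summed markers of cumulus cells reached at most 6.13 RPKM in a library, those of oviduct epithelium 0.301, of leukocytes 0.633, of erythroid cells 0.0267 and of sperm 0.164 RPKM. Rows were found for 5 of 8 cumulus, 4 of 6 oviduct, 6 of 6 leukocyte, 1 of 5 erythroid and 2 of 5 sperm markers. Apart from leukocytes, these sums thus cover only part of each list.

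The mitochondrial share of the reads in listed genes was low through cleavage and made its 2 largest steps between the 8-cell and 16-cell stages and between the morula and the blastocyst. It was 0.953, 0.796 and 3.46% in oocytes A, B and C and 1.55, 2.52 and 1.74% at the 2-cell stage. It was 3.44, 3.12 and 1.36% at the 4-cell stage and 4.72, 3.29 and 2.10% at the 8-cell stage. The share was 13.2, 10.6 and 6.87% at the 16-cell stage and 9.77, 13.7 and 3.23% in morulae. It reached 30.8, 45.8 and 33.7% in blastocysts, where every library lay far above every library of any other stage. Oocyte C lay above every 2-cell library, and morula C lay within the range of the 4-cell and 8-cell libraries.

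Between neighbouring stages, the share was 10.2 ± 3.17% at the 16-cell stage and 3.37 ± 1.31% at the 8-cell stage (mean ± SD, n = 3 each), and 36.8 ± 7.96% in blastocysts and 8.92 ± 5.31% in morulae. In both comparisons the libraries did not overlap and the exact two-sided permutation p was 0.1 (0.2 after Benjamini-Hochberg adjustment over 8 comparisons), the smallest that 3 libraries against 3 can give. The other 4 steps had overlapping libraries, with exact permutation p-values of 0.4 to 0.9. Pooled, the 9 libraries from the 16-cell stage on held 18.6 ± 14.5% and the 12 libraries up to the 8-cell stage 2.42 ± 1.20%, a difference of 16.2 percentage points (exact two-sided permutation p = 1.70e-05, adjusted 0.000136). Morula C, at 3.23%, was the only one of the 9 within the range of the 12, which ended at 4.72%. Pooled libraries come from several stages and are not replicates of 1 condition. The permutation took all 21 libraries as exchangeable, although 3 come from each stage, so its p-value overstates the evidence. It also does not place a rise at the 16-cell stage, and the tests were chosen with earlier results of these data known.

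The table's step sizes give an implied total of mapped reads, so the same share can be set against reads outside listed genes. Mitochondrial reads were 7.52, 11.4 and 13.7% of that total in blastocysts and 3.44, 4.85 and 1.15% in morulae. Reads in all other listed genes were 16.9, 13.5 and 26.9% of the total in blastocysts, against 31.8, 30.4 and 34.5% in morulae. Against the implied total as well as against the listed genes, the blastocyst libraries did not overlap the morula libraries. In bulk libraries scaled to their own total, more mitochondrial RNA, less of other RNA, and a different make-up of cells cannot be told apart.

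**Figure D1:**
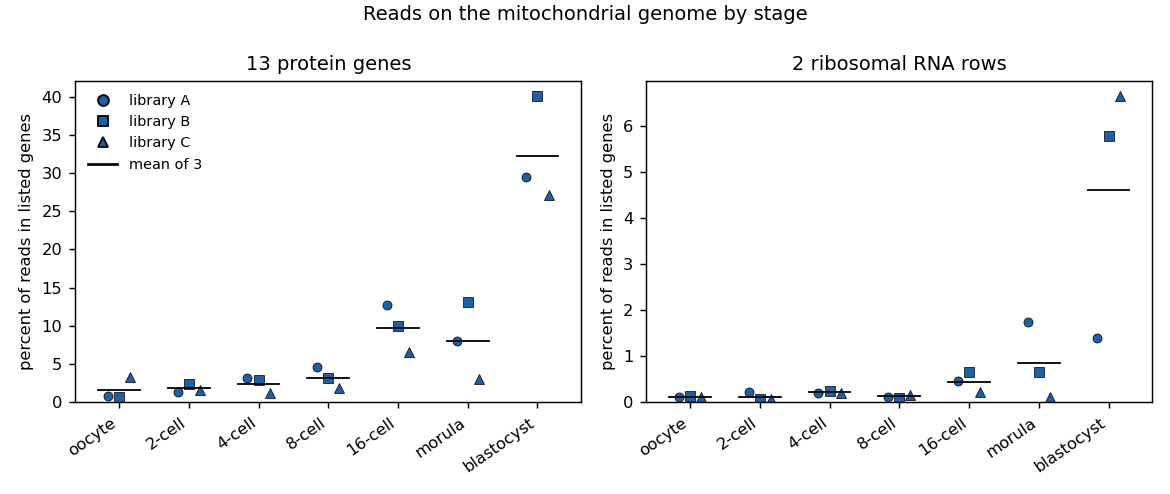
Share of the reads in listed genes (percent, linear axis from 0) that fell on the 13 protein genes (left) and on the 2 ribosomal RNA rows (right), by stage. Points are libraries A, B and C and lines are means of 3; the protein genes hold 27.1 to 40.1% in blastocysts and at most 13.1% in any other library.

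By respiratory complex, complex IV genes held more reads than complex I genes in blastocysts A (13.9 and 11.5% of listed-gene reads) and B (25.1 and 10.1%), while complex I genes led in blastocyst C (11.1% for complex IV and 11.5% for complex I) and in all 18 earlier libraries. Complex I genes held 11.0 ± 0.799% of listed-gene reads in blastocysts and 3.89 ± 2.28% in morulae, while complex IV genes held 16.7 ± 7.44% in blastocysts and 2.74 ± 1.82% in morulae. The ATP synthase genes held 3.25 ± 0.505% and CYTB 1.24 ± 0.325% in blastocysts, against 0.936 ± 0.616% and 0.511 ± 0.323% in morulae (n = 3 each). The 2 ribosomal RNA rows held 1.40, 5.78 and 6.65% in blastocysts, against 1.75, 0.662 and 0.114% in morulae, so that blastocyst A was below morula A. Of the 10 rows with most reads in a library, none was mitochondrial in oocytes, whereas 3 to 7 were at the 16-cell stage, 1 to 6 in morulae and 8 in each blastocyst library. The leading row of the whole table was COX3 in blastocyst A with 5.83% of listed-gene reads, COX1 in blastocyst B with 11.4%, and the downstream rRNA row in blastocyst C with 5.89%.

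The order of the members within a library was stable at both ends. COX3 had the highest RPKM of the 15 rows in 21 of 21 libraries, and ND6 was next to last and ATP8 last in 21 of 21. The second place was held by ND2 in 10 libraries, by ATP6 in 10 and by COX1 in 1. COX2 moved most in this order, with a median place of 12 and a best place of 3.

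**Figure D2:**
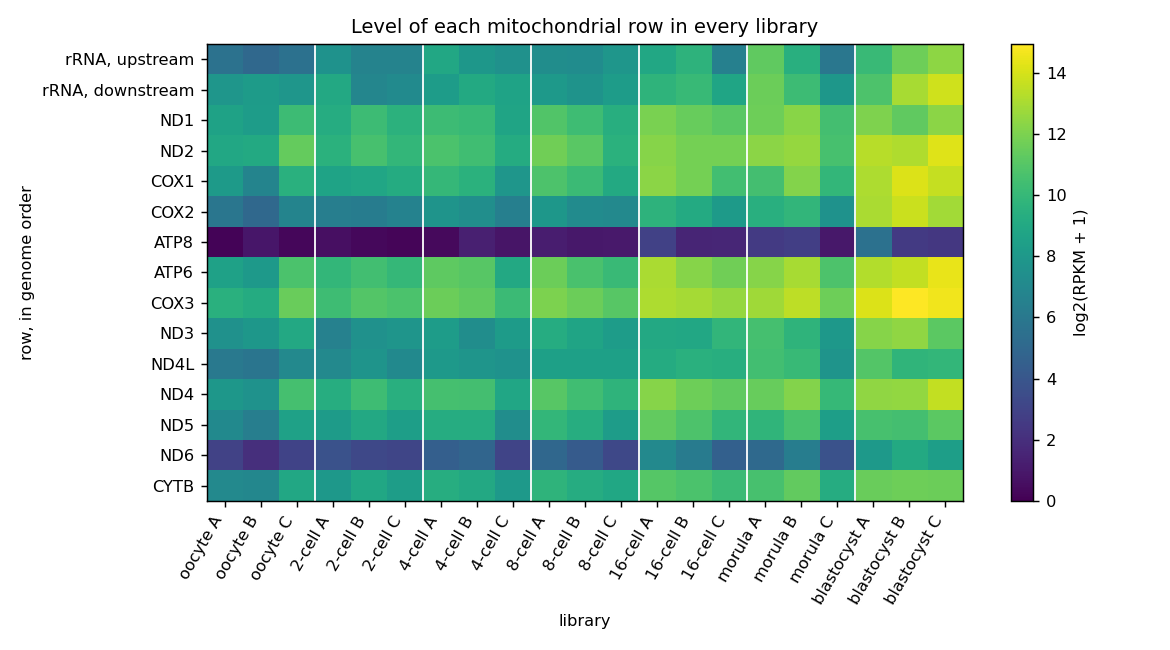
Level of each mitochondrial row in every library as log2(RPKM + 1), with rows in genome order and libraries in order of stage, stages separated by white lines. Blastocyst columns are the brightest, COX3 is the brightest row in every column, and ATP8 and ND6 are the darkest.

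Across all stages, each of the 15 rows passed the moderated F test of limma, but so did 93.8% of the 4253 genes tested, so this count alone says little of the mitochondrial rows. The test took in genes that reached 1 RPKM in 3 or more libraries; 14 members did so in all 21 libraries and ATP8 in 11, of which 8 were from the 16-cell stage on. A gene is called below when its limma adjusted p is under 0.05 and its log2 fold change, on the scale of log2(RPKM + 1), is at least 1 in size. No member was called lower in any comparison (0 of 15 in each). The share of all genes called lower was 0.4% at the 2-cell stage against oocytes, 0% and 0.0941% in the next 2 steps, 15.9% at the 16-cell stage, 4.66% in morulae, 25.3% in blastocysts against morulae and 28.5% in blastocysts against oocytes.

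From the oocyte to the 8-cell stage no member passed the test. Called higher were 0 of 15 at the 2-cell stage against oocytes (4.37% of all genes), 0 at the 4-cell against the 2-cell stage (0%) and 0 at the 8-cell against the 4-cell stage (0.588%). At an unadjusted p under 0.05 the counts were also 0 in all 3 comparisons. Libraries did not overlap, with the later stage higher, for 3 of 15 members at the 2-cell stage (37.1% of all genes), 0 at the 4-cell stage (3.57%) and 1 at the 8-cell stage (18.9%). Member medians were positive, with log2 fold changes of 0.73, 0.41 and 0.48 against medians of 0.19, -0.04 and 0.00 over all genes. The members of largest change were the upstream rRNA row (log2 fold change 1.61 ± 0.96, SE, limma adjusted p = 0.315) and ND5 (1.22 ± 0.67, adjusted p = 0.266) at the 2-cell stage, neither of which passed. At the 4-cell stage they were the upstream (1.12 ± 0.96) and downstream (0.99 ± 0.80) rRNA rows, both with an adjusted p of 1. At the 8-cell stage they were COX1 (0.90 ± 0.75, adjusted p = 0.659) and ND3 (0.79 ± 0.60, adjusted p = 0.616).

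Single libraries set much of this spread. Oocyte C was the highest oocyte library for 12 of 13 protein genes, but for neither ribosomal RNA row. At the 8-cell stage library A was highest for 12 protein genes and library C lowest for 12. ND4L, a small complex I subunit, was the exception in its low spread there, at 358, 358 and 356 RPKM.

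At the 16-cell stage, COX2 and ND6 were called higher than at the 8-cell stage, 2 of 15 members against 19.4% of all genes. COX2, which encodes the subunit that receives electrons from cytochrome c, was at 803, 568 and 281 RPKM at the 16-cell stage and 242, 146 and 131 RPKM at the 8-cell stage (log2 fold change 1.59 ± 0.58, limma adjusted p = 0.0246). All 3 of its 16-cell libraries exceeded all 3 of its 8-cell libraries. ND6, the complex I gene on the minus strand, was at 129, 74.8 and 23.0 RPKM at the 16-cell stage and 31.4, 18.5 and 8.38 RPKM at the 8-cell stage (1.77 ± 0.67, adjusted p = 0.0290). Its 16-cell C lay below its 8-cell A. Both calls were lost when 8-cell B, 8-cell C, 16-cell A or 16-cell B was left out, and without 16-cell C the count was 5. The share of all genes called in these fits is not given here, so the count of 5 has no background.

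The remaining 13 members lay on the same side without passing the threshold. All 15 fold changes were positive, against 45.1% of all genes, with a median of 1.32 against -0.14 over all genes. Libraries did not overlap, with the 16-cell stage higher, for 10 of 15 members and for 31.5% of all genes. ATP6, for example, which encodes the proton-conducting subunit of the ATP synthase, was at 8324, 4773 and 3394 RPKM at the 16-cell stage and 3050.4, 1599.9 and 1129 RPKM at the 8-cell stage (1.54 ± 0.74, adjusted p = 0.0820). Rescaling each library to its reads in genes off chromosome M brought the count of called members to 10, whereas quantile normalization brought it to 0. The direction was the same for all 15 under that rescaling and for 14 of 15 under quantile normalization. Median log2 fold changes of members and of all genes were 1.68 and 0.04 under the rescaling. Under quantile normalization they were 0.63 and -0.16. The share of all genes called under either setting is not given here.

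No member passed the test between morulae and 16-cell embryos. Called higher were 0 of 15 (11.4% of all genes), as at an unadjusted p under 0.05, and for 0 of 15 did all morula libraries exceed the 16-cell libraries (21% of all genes). The median log2 fold change was -0.10 against 0.01 over all genes. The largest were ND5 (-1.06 ± 0.67, limma adjusted p = 0.269) and ND6 (-0.86 ± 0.67, adjusted p = 0.371). Morula C was the lowest morula library for all 13 protein genes and both ribosomal RNA rows, the library that also carried the most GDF9 of its stage. The part of retained oocyte transcripts in this difference was not tested.

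In blastocysts, 7 of 15 members were called higher than in morulae, against 3.93% of all genes. They were all 3 complex IV genes, ND3 and ND6 of complex I and both ribosomal RNA rows. All 15 fold changes were positive, against 19.1% of all genes, and their median was 1.77 against -0.48 over all genes. Libraries did not overlap, with blastocysts higher, for 9 of 15 members and 6% of all genes.

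COX2 changed most. It was at 8430.1, 13952 and 7586 RPKM in blastocysts and 698, 907 and 193 RPKM in morulae, with a log2 fold change of 4.28 ± 0.58, or 19.4-fold (limma adjusted p = 1.24e-05). COX1, the subunit that carries the oxygen-reducing centre, was at 8985, 18371 and 12756 RPKM in blastocysts and 1449, 4644 and 936 RPKM in morulae (2.79 ± 0.75, adjusted p = 0.00516). COX3 was at 18160.5, 31499.9 and 25422 RPKM in blastocysts and 7084, 11313 and 3155 RPKM in morulae (1.95 ± 0.62, adjusted p = 0.0152). For each of the 3 genes the lowest blastocyst library lay above the highest morula library. The COX3 call was lost without morula C (adjusted p = 0.0833), under quantile normalization (0.0731), in the fit of only the stages compared (0.0627) and with array weights (0.106). The COX1 call was lost with array weights (0.0561), and the calls of COX1 and COX2 were kept with any 1 library of these stages left out.

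Among complex I genes, ND6 was at 261, 533 and 336 RPKM in blastocysts and 34.2, 80.7 and 12.8 RPKM in morulae (3.41 ± 0.67, or 10.6-fold, limma adjusted p = 0.000449). ND3 was at 4881, 5687 and 2302 RPKM in blastocysts and 1483, 855 and 249 RPKM in morulae (2.55 ± 0.60, adjusted p = 0.00206). Both sets were without overlap, and both calls were kept with any 1 library left out. The other 5 complex I genes did not pass. ND1, at 4166, 2507 and 5133 RPKM in blastocysts and 3174, 4940.4 and 1449 RPKM in morulae, differed least of the 15 members (0.41 ± 0.62, adjusted p = 0.599). ND5 was at 1550.1, 1424 and 2287 RPKM in blastocysts and 882, 1592 and 330.1 RPKM in morulae (1.15 ± 0.67, adjusted p = 0.174), and its highest library of all 21 was 16-cell A, at 2567 RPKM. ND2 had no overlap, at 10504, 9199 and 18714 RPKM in blastocysts and 5184, 6182 and 1576 RPKM in morulae, but missed the threshold (1.72 ± 0.70, adjusted p = 0.0538).

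The ribosomal RNA rows varied widely within both stages. The downstream row was at 1765, 8007 and 15185 RPKM in blastocysts and 3026, 1235 and 237 RPKM in morulae (2.64 ± 0.80, limma adjusted p = 0.0118). The upstream row was at 1138, 3175 and 5359.6 RPKM in blastocysts and 2491, 688 and 60.6 RPKM in morulae (2.51 ± 0.96, adjusted p = 0.0416). Both overlapped between the stages, since blastocyst A lay below morula A. The upstream call was lost without morula C (adjusted p = 0.336), blastocyst B (0.110) or blastocyst C (0.133), and the downstream call without morula C (0.0953) or blastocyst C (0.0611). Both were also lost under quantile normalization, in the fit of only the stages compared and with array weights, and the upstream call also without a filter and with a pseudocount of 5.

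CYTB, the single complex III gene of the mitochondrial genome, was at 2904, 3243 and 3084 RPKM in blastocysts and 1553, 2595 and 601 RPKM in morulae (1.19 ± 0.58, limma adjusted p = 0.101). ATP6 was at 9655, 12248 and 21968 RPKM in blastocysts and 4750.5, 8083 and 1716 RPKM in morulae (1.77 ± 0.74, adjusted p = 0.0591). Neither passed, although the libraries of both were without overlap. The number of members called depended on morula libraries and on scaling: it was 4 without morula C and 12 without morula B, and 14 after rescaling to reads off chromosome M. Median-ratio scaling, which moved the median over all genes to -0.01, gave 15. After rescaling to reads off chromosome M the median over all genes was -0.20. The share of all genes called under these alternatives is not given here.

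**Figure D3:**
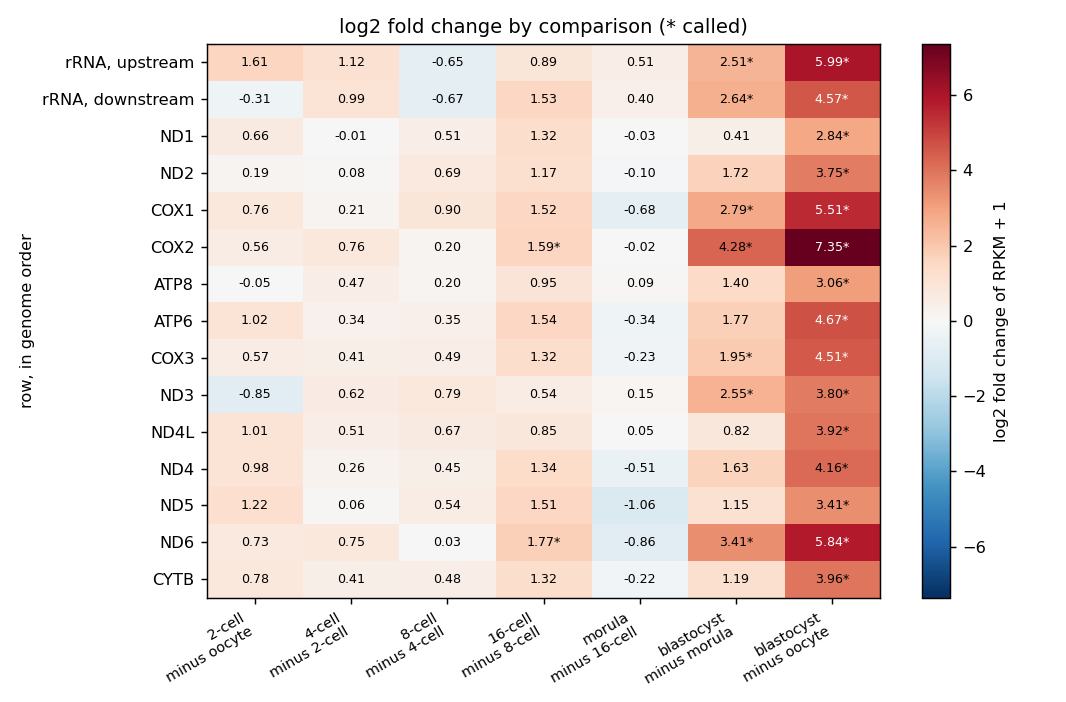
Log2 fold change of RPKM + 1 for each of the 15 mitochondrial rows (down, genome order) in the 7 comparisons (across), printed in each cell; red is higher at the stage named first and an asterisk marks a called difference. Calls stand in 2 cells for the 16-cell against the 8-cell stage, 7 for blastocysts against morulae and 15 for blastocysts against oocytes.

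Across the whole series, 15 of 15 members were called higher in blastocysts than in oocytes, against 19.8% of all genes. Their log2 fold changes ran from 2.84 ± 0.62 for ND1 to 7.35 ± 0.58 for COX2, or 7.17-fold to 164-fold (limma adjusted p of 0.000455 and 2.67e-09), with a median of 4.16 against -0.33 over all genes. COX2 was at 57.2, 32.0 and 105 RPKM in oocytes. After COX2 came the upstream rRNA row at 5.99 ± 0.96 (47.7, 31.9 and 46.3 RPKM in oocytes), ND6 at 5.84 ± 0.67 and COX1 at 5.51 ± 0.75. For every member the blastocyst libraries lay above all 3 oocyte libraries, as they did for 27.2% of all genes. Leaving out any 1 library of these stages kept the count at 15, and under quantile normalization it was 14, without ND1. The share of all genes called in those fits is not given here. Set against all 18 other libraries at once, 9 members (ND2, ND3, ND4, ND6, CYTB, COX1, COX2, COX3 and ATP6) had all 3 blastocyst libraries on top, as did 4.28% of all genes.

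ATP8, whose product is a short membrane subunit of the ATP synthase, differed from the other members in level. It was at 0.106, 0.871 and 0.197 RPKM in oocytes. It was at 0.524, 0.258 and 0.162 RPKM at the 2-cell stage, 0.323, 1.48 and 0.820 RPKM at the 4-cell stage, and 1.27, 0.956 and 1.05 RPKM at the 8-cell stage. It was at 6.52, 1.91 and 2.01 RPKM at the 16-cell stage, 4.78, 5.90 and 0.983 RPKM in morulae and 46.5, 4.71 and 4.31 RPKM in blastocysts. These levels rest on 1 to 417 reads a library, with 3 reads or fewer in 5 libraries, where the level cannot be told from 0. Blastocyst A held 417 of the 500 ATP8 reads of its stage. Relative to ATP6, with which it shares a bicistronic messenger RNA in mammals, ATP8 was at 0.0113 to 0.482% over the 21 libraries. The bases shared with ATP6 make up 20.2% of ATP8, and the part of the counting rule in its low level was not tested.

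Ratios between groups of members within a library do not depend on how libraries were scaled. The 3 complex IV genes summed to 122, 245 and 109% of the RPKM of the 7 complex I genes in blastocysts and to 61.5, 87.3 and 88.4% in morulae. They lay between 50.3 and 93.4% in all 18 libraries before the blastocyst. The log2 ratio was higher by 0.93 in blastocysts than in morulae and by 1.33 than in oocytes, without overlap in either (exact permutation p = 0.1 each, adjusted 0.364 over 40 ratio tests). In the 9 libraries from the 16-cell stage on it averaged -0.02 ± 0.57, against -0.58 ± 0.24 in the 12 libraries up to the 8-cell stage (difference 0.56, exact permutation p = 0.00131, adjusted 0.0525). With 1 library left out, that adjusted value lay below 0.05 for 3 of 21 libraries and did not for the others. The 3 were 8-cell C (0.0281), 16-cell C (0.0283) and morula A (0.00508). Stage means of this log2 ratio were 0.57 for blastocysts, -0.36 for morulae and -0.27 for 16-cell embryos. Earlier means ran -0.76, -0.65, -0.45 and -0.45 from oocyte to 8-cell embryo. Libraries overlapped between 8-cell and 16-cell embryos (difference 0.17, exact permutation p = 0.4) and between 16-cell embryos and morulae (-0.09, p = 0.7). Pooled libraries are not replicates of 1 condition, and the pooled p-value does not place a shift at the 16-cell stage.

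The minus-strand gene ND6 also stood higher against the other protein genes in blastocysts than in morulae, but not above every earlier library. Its RPKM was 0.340, 0.508 and 0.299% of the sum of the 12 plus-strand protein genes in blastocysts and 0.112, 0.172 and 0.112% in morulae, a log2 difference of 1.53 (exact permutation p = 0.1, adjusted 0.364). In oocytes it was 0.222, 0.119 and 0.0564%, and the difference of blastocysts from oocytes was 1.70 with the same p-values. At the 16-cell stage ND6 was at 0.305, 0.241 and 0.0996% of that sum, so 16-cell A lay above blastocyst C. Without knowledge of strand in the counting, reads from ND6 and from the opposite strand of the same stretch cannot be told apart.

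The 2 ribosomal RNA rows stood in another ratio in oocytes than at the 2-cell stage. The downstream row was at 258, 113 and 135% of the RPKM of the upstream row at the 2-cell stage, against 486, 937 and 492% in oocytes, without overlap (log2 difference -1.94, exact permutation p = 0.1, adjusted 0.364). In blastocysts the ratio was 155, 252 and 283%, again below all oocyte libraries. Relative to the protein genes, the ribosomal RNA rows together ranged from 2.18 to 18.2% of their RPKM over the 21 libraries, and libraries overlapped in all 8 comparisons (exact permutation p of 0.3 to 1). Ribosomal RNA is the most abundant product of the mitochondrial genome in most tissues when all RNA is measured, and how these libraries were selected for RNA type is not given in the sources used here.

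The ATP synthase genes were at 38.3, 27.9 and 31.9% of complex I at the 2-cell stage, against 24.3, 18.1 and 25.7% in oocytes (log2 difference 0.53, exact permutation p = 0.1, adjusted 0.364). In blastocysts they were at 33.4, 47.0 and 52.5%, overlapping morulae at 31.7, 41.9 and 35.4%.

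**Figure D4:**
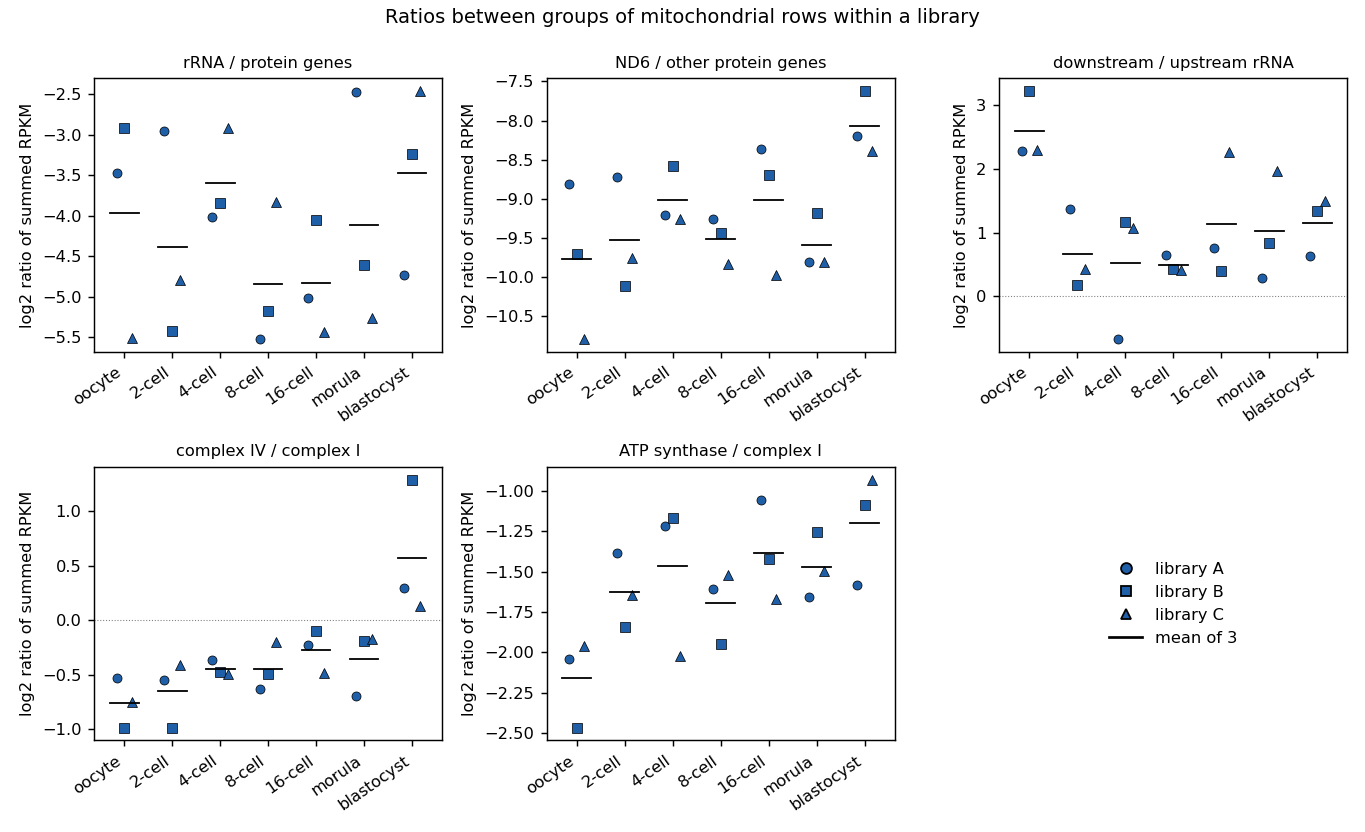
Log2 ratios of summed RPKM between groups of mitochondrial rows within each library, by stage; points are libraries A, B and C and lines are means of 3. Blastocysts stand above morulae in complex IV over complex I and in ND6 over the other protein genes, and oocytes stand above the 2-cell stage in downstream over upstream rRNA.

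Levels of neighbouring genes were also set against each other. The following pairs were picked after their values were seen and are given without a test. COX2, which lies 142 bases downstream of COX1, was at 93.8, 75.9 and 59.5% of COX1 in blastocysts and between 12.6 and 48.2% in the 18 other libraries. ND6 was at 16.9, 37.4 and 14.7% of ND5 in blastocysts and between 1.60 and 5.08% elsewhere. ND2 was at 252, 367 and 365% of ND1 in blastocysts and between 109 and 226% elsewhere. In these 3 pairs no earlier library reached the blastocyst range, whereas COX3 over ATP6 ran from 105 to 257% and CYTB over ND5 from 78.8 to 228% over all libraries.

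**Figure D5:**
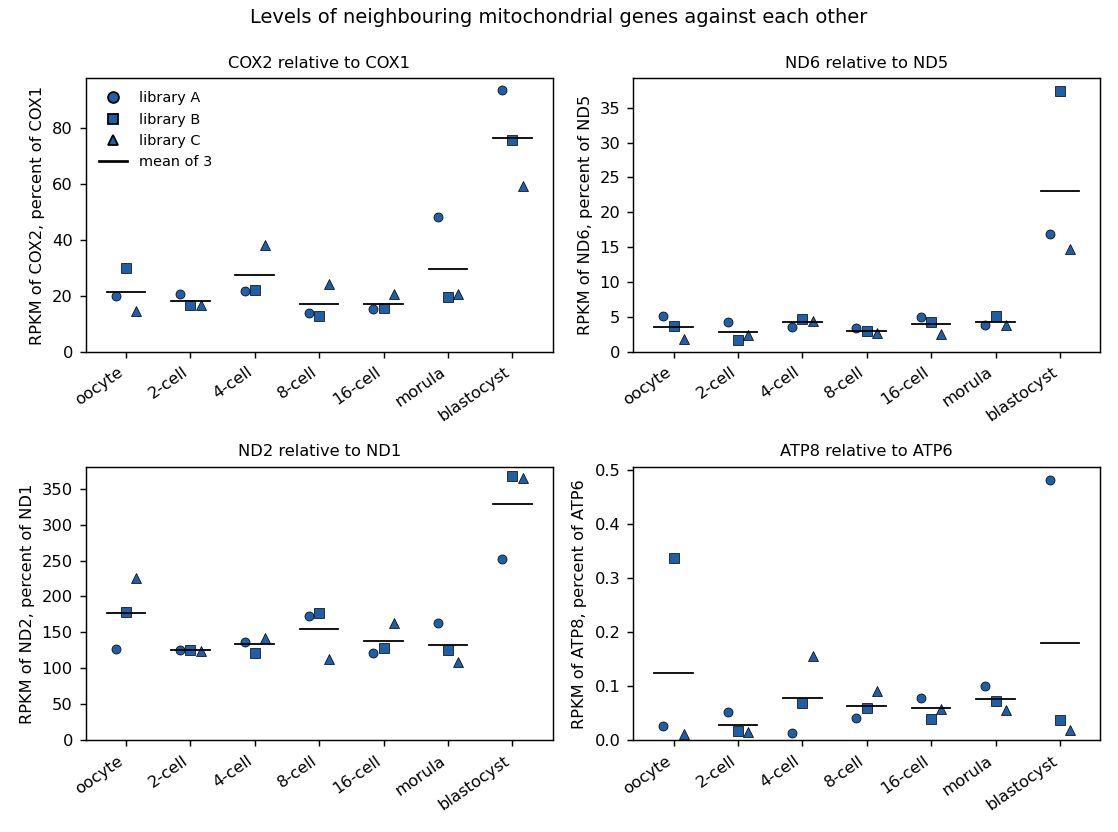
Level of 4 mitochondrial genes as a percent of the RPKM of a neighbouring gene (linear axes from 0), by stage; points are libraries A, B and C and lines are means of 3. COX2, ND6 and ND2 stand higher in the 3 blastocyst libraries than in the 18 others, and ATP8 stays under 0.5% of ATP6 throughout.

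Nuclear genes whose products work with the mitochondrial genome were taken from 6 lists, of which 160 names had a row and 100 genes were tested. Called higher and lower were 4 and 0 of the 100 at the 2-cell stage against oocytes, 0 and 0 at each of the next 2 steps, 20 and 11 at the 16-cell against the 8-cell stage, 25 and 1 in morulae against the 16-cell stage, and 8 and 15 in blastocysts against morulae. Over all genes tested, higher and lower calls were 4.37 and 0.4% at the 2-cell stage, 19.4 and 15.9% at the 16-cell stage, 11.4 and 4.66% in morulae, and 3.93 and 25.3% in blastocysts against morulae. The last split depended on scaling, with 32 higher and 4 lower under quantile normalization. The share of all genes called under quantile normalization is not given here or for the lists below. Counts under that setting therefore cannot be set against the shares of the main fit. In blastocysts against oocytes, 37 were called higher and 13 lower, against 19.8 and 28.5% of all genes.

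Of 37 nuclear subunits of the respiratory chain tested, 20 were called higher and 0 lower in morulae against the 16-cell stage (11.4% of all genes higher), and 7 higher and 2 lower in blastocysts against morulae (3.93% higher). Which step had more higher calls in this list depended on scaling, since quantile normalization gave 19 and 25, without the share of all genes beside them. At the 16-cell against the 8-cell stage 7 were called higher and 1 lower, close to the 19.4% of all genes called higher. Their median log2 fold change was 1.14 in morulae against the 16-cell stage, where the mitochondrial members had -0.10 and all genes 0.01, and 0.36 in blastocysts against morulae, where the members had 1.77 and all genes -0.48. No test was made of the difference between the 2 sets. NDUFS5, a complex I subunit, was at 16.4 ± 9.67 RPKM in morulae and 0.772 ± 0.557 RPKM at the 16-cell stage (log2 fold change 3.19, limma adjusted p = 1.74e-05). ATP5F1B, the catalytic beta subunit of the ATP synthase, was at 15.5 ± 0.955 RPKM in morulae and 2.93 ± 1.24 RPKM at the 16-cell stage (2.11, adjusted p = 5.87e-05). In blastocysts against morulae, NDUFB10 of complex I was at 26.1 ± 9.48 and 3.58 ± 1.38 RPKM (2.55, adjusted p = 2.09e-05). Against oocytes, 30 of the 37 were called higher in blastocysts and 1 lower, COX7A2L. Spans of nuclear genes include introns, so these levels are not comparable with those of mitochondrial genes.

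Among 12 tested genes of mitochondrial transcription and genome replication, 4 were called higher and 3 lower at the 16-cell against the 8-cell stage, and 0 higher and 4 lower in blastocysts against morulae. The list had 21 rows, and those that did not reach 1 RPKM in 3 libraries were not tested. Untested genes included POLRMT, TFAM, POLG and TWNK, so these counts do not cover them. TEFM, the elongation factor of the mitochondrial RNA polymerase, was at 19.4 ± 6.04 RPKM at the 16-cell stage and 3.63 ± 0.387 RPKM at the 8-cell stage (2.10, limma adjusted p = 0.000651). In blastocysts TEFM was at 3.56 ± 3.91 RPKM, against 28.2 ± 3.21 RPKM in morulae (-3.05, adjusted p = 2.88e-05). MTERF1, a termination factor that binds mitochondrial DNA, was at 16.3 ± 6.97 RPKM at the 16-cell stage and 2.98 ± 0.409 RPKM at the 8-cell stage (2.04, adjusted p = 1.26e-05). It was at 0.444 ± 0.0997 RPKM in blastocysts and 8.02 ± 2.29 RPKM in morulae (-2.61, adjusted p = 1.22e-06). TFB1M, a methyltransferase of mitochondrial ribosomal RNA, was lower at the 16-cell stage than at the 8-cell stage (0.575 ± 0.357 and 2.55 ± 0.634 RPKM, -1.18, adjusted p = 0.000118), and this call was lost after rescaling to reads off chromosome M. Of all genes, 19.4% were called higher at the 16-cell stage and 25.3% lower in blastocysts against morulae in the main fit. For blastocysts against morulae, quantile normalization gave 1 higher and 2 lower of this list, without the share of all genes beside them.

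Of 16 tested genes that process mitochondrial RNA, 2 were called higher and 4 lower at the 16-cell against the 8-cell stage, and 0 higher and 4 lower in blastocysts against morulae. Over all genes, 19.4% were called higher and 15.9% lower at the 16-cell stage, and 25.3% lower in blastocysts against morulae, in the main fit. For blastocysts against morulae, quantile normalization left 1 lower call in the list, without the share of all genes beside it. TRMT10C, a subunit of the enzyme that cuts the 5′ ends of mitochondrial transfer RNAs, was at 44.1 ± 20.1 RPKM at the 16-cell stage and 2.80 ± 0.939 RPKM at the 8-cell stage (3.47, limma adjusted p = 3.73e-06). It was at 18.8 ± 14.6 RPKM in blastocysts and 53.0 ± 5.54 RPKM in morulae (-1.69, adjusted p = 0.00397), a call lost under quantile and median-ratio scaling, after rescaling to reads off chromosome M and in the fit of only the stages compared. FASTKD2, an RNA-binding protein of mitochondrial ribosome assembly, was at 1.05 ± 0.499 RPKM at the 16-cell stage and 6.61 ± 0.658 RPKM at the 8-cell stage (-1.92, adjusted p = 3.33e-06).

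For the lists that follow, the background calls were 19.4% higher and 15.9% lower for the 16-cell against the 8-cell stage, 11.4% higher in morulae against the 16-cell stage, and 3.93% higher and 25.3% lower in blastocysts against morulae. Of 11 tested genes of mitochondrial translation, 3 were called higher and 1 lower at the 16-cell against the 8-cell stage, and 0 in either direction in blastocysts against morulae. COX14, an assembly factor that binds COX1, was at 10.3 ± 8.33 RPKM at the 16-cell stage and 0.404 ± 0.141 RPKM at the 8-cell stage (2.77, limma adjusted p = 0.000350). Of 7 tested regulators of mitochondrial gene expression, 2 were called higher at the 16-cell against the 8-cell stage, and 1 higher and 3 lower in blastocysts against morulae. GABPA, a transcription factor that binds promoters of nuclear respiratory genes, was at 18.3 ± 10.3 RPKM at the 16-cell stage and 1.30 ± 0.468 RPKM at the 8-cell stage (2.92, adjusted p = 8.73e-07). It was at 0.481 ± 0.522 RPKM in blastocysts and 6.43 ± 1.35 RPKM in morulae (-2.37, adjusted p = 1.52e-05). Of 17 tested genes of mitochondrial dynamics, import and mitophagy, 2 were called higher and 2 lower at the 16-cell against the 8-cell stage, 5 higher in morulae against the 16-cell stage, and 2 lower in blastocysts against morulae. In blastocysts against morulae, quantile normalization gave 2 higher and 0 lower for translation, 1 and 1 for the regulators, and 3 and 0 for dynamics, import and mitophagy. The background calls above are those of the main fit and do not apply to these counts. FUNDC1, a mitophagy receptor of the outer membrane, was at 13.3 ± 5.85 RPKM at the 16-cell stage and 0.137 ± 0.0320 RPKM at the 8-cell stage (3.57, adjusted p = 9.05e-08). OPA1, which fuses inner membranes, was at 1.12 ± 0.723 and 7.30 ± 1.84 RPKM at these 2 stages (adjusted p = 4.06e-05). FUNDC1 reached at most 0.390 RPKM in any library from the oocyte to the 8-cell stage. It therefore met the filter of 1 RPKM in 3 libraries only through later stages, where it was higher. The part of that filter in the FUNDC1 call was not tested. Over the 5 lists other than the respiratory chain, the median log2 fold change at the 16-cell against the 8-cell stage was -0.33 for transcription and replication, -0.45 for RNA processing, -0.40 for translation, 0.33 for regulators and -0.44 for dynamics, against -0.14 over all genes. In blastocysts against morulae these medians were -0.41, -0.51, -0.35, -0.98 and -0.25 in the same order, against -0.48 over all genes.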

How the data were processed

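RNA was measured by sequencing in 21 libraries, grouped in 7 stages of 3 by their titles. The authors deposited 1 table of RPKM values with a row per gene. Per the submitters' processing notes, tools were FastQC, Partek and STAR 2.5.3a, without their roles. The sources used here give no genome build, strandedness or counting rule. The lowest value was 0.01. Less this offset and times the span, 92.6 to 95.1% of the low values per library came out as whole multiples of 1 step (tolerance 0.05), so the offset was subtracted and reads were recovered as value times span. The implied total was 24.0 to 66.6 M reads, of which 24.4 to 42.0% lay in listed genes; 3 reads were taken as the level not told from 0, which covers counting error only.

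All 15 members matched a mitochondrial gene in the RefSeq table by start and end, the stop in the deposited table being 1 base past the RefSeq end, and the 13 protein genes matched by symbol. The 4253 genes that reached 1 RPKM in 3 or more libraries were tested with limma 3.58.1 (trend, robust) on log2(RPKM + 1) under R 4.3.3, with all stages in 1 model, two-sided, with Benjamini-Hochberg adjustment over all genes tested within a comparison. Fold changes on this scale understate the change of low genes. Shares and 5 within-library ratios were compared by exact permutation tests of differences of means (8 and 40 tests), which cannot give a p under 0.1 with 3 libraries against 3. The planned ratio of transfer RNA to protein genes was not computed, since no transfer RNA row was found. The members, lists and tests were chosen with earlier results of these data known. Every member is named. Of the nuclear lists, genes printed with values were drawn from the up to 3 higher and 3 lower of largest change among called genes whose libraries do not overlap. Alternatives included a pseudocount of 0.1 or 5, a filter of 5 RPKM or none, quantile and median-ratio scaling, rescaling to reads off chromosome M, RPM, a fit of only the stages compared, the replicate letter as a block, array weights, and leaving out libraries. Other steps used Python 3.11.15 with pandas 2.3.3, numpy 2.4.6 and, for figures, matplotlib 3.10.9. The limma steps were tested on simulated data.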

Additional observations from a re-analysis of the deposited data

How the results depend on the processing

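The F test was passed by 15 of 15 members under every alternative but quantile normalization (14), and 0 members were called lower in any comparison under any alternative. Blastocysts against oocytes gave 15 members called higher except under quantile normalization (14). Blastocysts against morulae gave 15 under median-ratio scaling, 14 after rescaling to reads off chromosome M, and 4 each with only the stages compared, with array weights, and without 16-cell C and morula C; leaving out 1 library gave 4 to 12. Calls of COX2, ND3 and ND6 were kept under all 18 alternatives and that of COX1 under 17. The 16-cell against the 8-cell stage gave 0 without a filter and under quantile normalization, 10 after rescaling to reads off chromosome M and with only the stages compared, 5 with array weights, and 7 without 16-cell C and morula C; leaving out 1 library gave 0 to 5. Array weights, whose estimation stopped before it converged, gave 6 at the 2-cell stage against oocytes and 3 at the 8-cell against the 4-cell stage, and the fit of only the stages compared gave 1 at the 2-cell stage. The causes were not tested, and the share of all genes called under each alternative is not given here. Correlations of deviations between same-letter libraries ran from -0.41 to 0.318, the highest for letter B in morulae against the 16-cell stage. Different letters were not compared, so these values cannot settle whether the letters A to C pair the libraries. With the replicate block the members called higher remained 2 at the 16-cell stage, 7 in blastocysts against morulae and 15 against oocytes.

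The share differed in the same direction throughout, except when 1 library was left out at the 2-cell stage against oocytes (-0.273 to 1.06 percentage points) and in morulae against the 16-cell stage (-3.71 to 1.55). Log2 ratios that changed sign under another way of computing them are given next, and those that did so with 1 library left out follow below. With reads not per length, ATP synthase over complex I was 0.0148 in morulae against the 16-cell stage. With means of log2 values it was 0.195 there and -0.0256 at the 2-cell stage against oocytes, complex IV over complex I was 0.0311 in morulae against the 16-cell stage, and rRNA over protein genes was 0.0528 in 2-cell embryos against oocytes and -0.116 in 16-cell against 8-cell embryos. Pooled complex IV over complex I passed its threshold with means of log2 values (0.797, exact permutation adjusted p = 0.0133) and without 16-cell C and morula C (0.645, 0.0476), and leaving out 1 library gave 0.392 to 0.641; pooled downstream over upstream rRNA was -0.249 without those 2 libraries.

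Leaving out 1 library also gave, for rRNA over protein genes, -1.19 to 0.0978 (2-cell against oocyte), -0.381 to 0.516 (16-cell against 8-cell), -0.102 to 1.30 (morula against 16-cell), -0.281 to 1.12 (blastocyst against oocyte) and -0.156 to 0.216 (pooled). For downstream over upstream rRNA it gave -0.459 to 0.458 (4-cell against 2-cell), -0.617 to 0.3003 (8-cell against 4-cell), -0.577 to 0.455 (morula against 16-cell), -0.249 to 0.594 (blastocyst against morula) and -0.120 to 0.235 (pooled). For complex IV over complex I it gave -0.00784 to 0.280 (2-cell against oocyte), -0.118 to 0.0955 (8-cell against 4-cell) and -0.194 to 0.0840 (morula against 16-cell); for ATP synthase over complex I -0.231 to 0.0744 (morula against 16-cell); and for ND6 over the other protein genes -0.269 to 0.721 (2-cell against oocyte).

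Among listed nuclear genes, RPM without division by the span gave 19 higher and 2 lower at the 2-cell stage against oocytes, 35 and 37 at the 16-cell against the 8-cell stage, 49 and 3 in morulae, 21 and 43 in blastocysts against morulae, and 71 and 34 against oocytes, over 10384 genes tested. More listed genes than the 100 of the main fit entered this fit. The share of all genes called in it is not given here, so these counts cannot be set against those of the main fit. Quantile normalization gave 1 higher and 2 lower at the 2-cell stage, 1 lower at the 8-cell stage, 2 lower in morulae, and 32 higher and 4 lower in blastocysts against morulae. Without 16-cell C and morula C, 2 were lower at the 2-cell stage, 4 lower in morulae and 5 higher in blastocysts against morulae. ESRRA and NDUFB2, called lower in blastocysts against morulae, were at 0.14 and 0.035 under median-ratio scaling. Depth limits ATP8 most, with 1 to 417 reads a library.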
